A study of Homo sapiens with 12 samples.

Results

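Collagens, laminins and integrins are the chains from which cells build and grip their extracellular matrix, and their mRNAs were followed in PANC-1, an established line from a human pancreatic ductal adenocarcinoma. Members were the protein-coding genes named as collagen chains (COL with a type and a chain number), laminin chains (LAMA, LAMB or LAMC) and integrin subunits (ITGA or ITGB). Of 81 such genes, 55 had at least 100 reads summed over the 12 libraries, out of 60669 gene identifiers in all: 28 of 44 collagen chains, 10 of 12 laminin chains, 10 of 17 integrin α and 7 of 8 integrin β subunits. Just inside that minimum lay COL24A1 with 117 reads and COL17A1 with 143, and just outside it COL22A1 with 81, COL4A6 with 72 and COL4A4 with 69. All 55 also passed the filter on low counts and were tested.

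Collagen chains wind in threes into fibrils, networks or membrane-spanning rods, and laminin α, β and γ chains join into the cross-shaped trimers of basement membranes. Integrins pair 1 α with 1 β subunit and tie these polymers to the cytoskeleton. In pancreatic ductal tumours a dense, collagen-rich matrix is a known feature, much of it laid down by stromal fibroblasts, while the tumour cells add basement membrane chains and the receptors for them. SIK3 is a serine/threonine kinase of the salt-inducible family, and TNF-α is an inflammatory cytokine that activates NF-κB.

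The cells had carried either of 2 siRNAs for 72 h, a control or one directed at SIK3, which the sample titles call AS1. They then received TNF-α at 100 ng/mL for 30 min or 4 h, or none. There were 6 conditions with 2 biological replicates each. The design uses 1 cell line and 1 siRNA against the target, so loss of SIK3 and other effects of that siRNA cannot be told apart, and in bulk RNA fewer cells with a transcript and less of it per cell cannot be told apart either.

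For 8 of the 12 libraries the title and the condition words in the deposited names differ, and conditions are given here by the latter: Scr1 for the control siRNA or SIK3, each with no TNF (written CLM, a term the labels do not explain), 30 min or 4 h. SIK3 mRNA, as TMM-scaled CPM (read counts relative to library size), was 34.3 and 60.4 in Scr1 no TNF, 42.5 and 68.7 in Scr1 30 min, and 34.4 and 65.2 in Scr1 4 h (replicates 1 and 2). It was 16.3 and 22.4 in SIK3 no TNF, 17.3 and 24.0 in SIK3 30 min, and 18.3 and 22.8 in SIK3 4 h, so the 6 libraries named SIK3 all lay below the 6 named Scr1. NFKBIA, a feedback target of NF-κB, was at 198 to 234 CPM in Scr1 no TNF, 622 to 654 at 30 min and 853 to 1029 at 4 h. In the SIK3 libraries it was lower in each TNF state, at 146.5 to 166, 288 to 314 and 554 to 567 CPM. By title the libraries form the same 6 pairs but with other names, and most member results change with them.

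Libraries held 13535825 to 22699756 reads in genes, of which the 55 members took 0.843 to 1.005%. Reads in no annotated feature were 16.5 and 17.1% of all reads in the SIK3 4 h libraries and 8.35 to 10.5% in the others. Multimapping reads were 4.94 to 17.6% in replicate 1 and 10.15 to 45.3% in replicate 2, which was the higher in each condition. SIK3 4 h replicate 2 had the 10.15%, and Scr1 4 h replicate 2 had 41.5%. All 7 epithelial markers were present, with a summed level of 5821 to 7031 CPM in the Scr1 and 5431 to 6569 in the SIK3 libraries. CDH1 (72.5 to 86.9 and 28.1 to 37.6 CPM) and EPCAM (46.7 to 55.02 and 31.0 to 45.0 CPM) were lower in the SIK3 libraries without overlap, and the ranges of the other 5 overlapped. Of 7 markers of fibroblasts or stellate cells 1 reached a mean of 1 CPM (summed level 5.13 to 7.10 CPM in the Scr1 and 4.07 to 5.73 in the SIK3 libraries), as did 0 of 5 leukocyte and 0 of 4 endothelial markers. Of 3 mesenchymal markers, VIM (3262 to 3998 and 1352 to 2320 CPM) and CDH2 (85.5 to 95.0 and 56.0 to 67.6 CPM) were lower without overlap, while ZEB1 overlapped (68.7 to 91.4 and 62.1 to 89.0 CPM). Their part in the results below was not tested.

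Per kilobase of exon, the most abundant members over all libraries were ITGB1 (306 CPM per kb), the shared β subunit of many matrix receptors, and ITGAV (198), which pairs with ITGB1, ITGB3, ITGB5, ITGB6 and ITGB8. Among collagens COL5A2 (122 CPM per kb), COL11A1 (69.4) and COL18A1 (57.4) led, and among laminins LAMC1 (92.6) and LAMB1 (47.4). The fibril-forming chain COL1A1 was at 0.882 CPM per kb, and its usual partner COL1A2 had 4 reads in all 12 libraries together. ITGB7, the partner of ITGAE, had 21 reads and COL8A1, the partner of COL8A2, had 0 (per-library limits for 3 reads were 0.132 to 0.222 CPM, for counting error only).

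In cells with the SIK3 siRNA, more collagen chains rose than fell, and more integrin subunits fell than rose. Averaged over the 3 TNF states, 35 of 55 members passed an adjusted p of 0.05 (edgeR quasi-likelihood test, adjusted over all 16695 genes tested), 19 higher and 16 lower. That is 63.6% of members, beside 59.2% of all genes tested, so the number of calls was near that of other genes. The directions differed by class: 14 collagens rose and 6 fell, 4 laminins rose and 3 fell, and 1 integrin rose and 7 fell, where 30.2% of all genes rose and 29.0% fell. The median log2 difference was 0.43 over the 28 collagens, -0.23 over the 17 integrins and 0.02 over all genes. Scaling by library totals gave 16 collagens higher and 6 lower, and 3 integrins higher and 7 lower. With the replicate number as a block, 16 collagens were higher and 8 lower, and 3 integrins higher and 9 lower. Of all 16695 genes, 6157 were then higher and 5954 lower.

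In the 3 knockdown comparisons taken one by one, 30 members were called with no TNF (38.6% of all genes), 30 at TNF 30 min (37.8%) and 26 at TNF 4 h (39.5%). With no TNF 17 were higher, beside 18.9% of all genes, and 13 lower, beside 19.8%. At TNF 30 min 17 were higher (18.2%) and 13 lower (19.6%), and at TNF 4 h 11 were higher (19.6%) and 15 lower (19.9%). These comparisons share no library. In all 3, COL3A1, COL4A1, COL4A5, COL6A2, COL7A1, COL8A2, COL11A1, COL21A1, LAMA4, LAMB2 and LAMC3 were higher, 11 of 55 members beside 12.5% of all genes. Lower in all 3 were 10 of 55 members beside 14.2% of all genes. Among them were COL2A1, COL5A2, COL16A1, COL26A1, ITGA2, ITGA6, ITGB3, ITGB4 and ITGB8. Of these 2 lists, COL8A2 and COL16A1 reach the minimum of reads for a member only with the siRNA where they were higher. Their selection and their calls therefore rest on the same libraries. When 1 library was left out, 6 of the 11 kept all 3 calls under each omission, as did 7 of the 10. The call of COL7A1 at TNF 4 h was lost under all 4 omissions (adjusted p 0.0503 to 0.154), and at 30 min it was lost without Scr1 replicate 1 (0.0664). At TNF 4 h COL4A1 lost its call without Scr1 replicate 2 or SIK3 replicate 1 (0.151 and 0.173), COL21A1 without replicate 2 of either siRNA (0.083 and 0.0646) and COL16A1 without SIK3 replicate 1 (0.0777). With no TNF COL3A1 lost it without replicate 2 of either siRNA (0.0754 and 0.0554) and COL8A2 without replicate 1 of either (0.0937 and 0.0897). COL5A2 lost it without Scr1 replicate 1 or SIK3 replicate 2, at 30 min (0.0801 and 0.0879) and at 4 h (0.0623 and 0.0639).

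**Figure D1:**
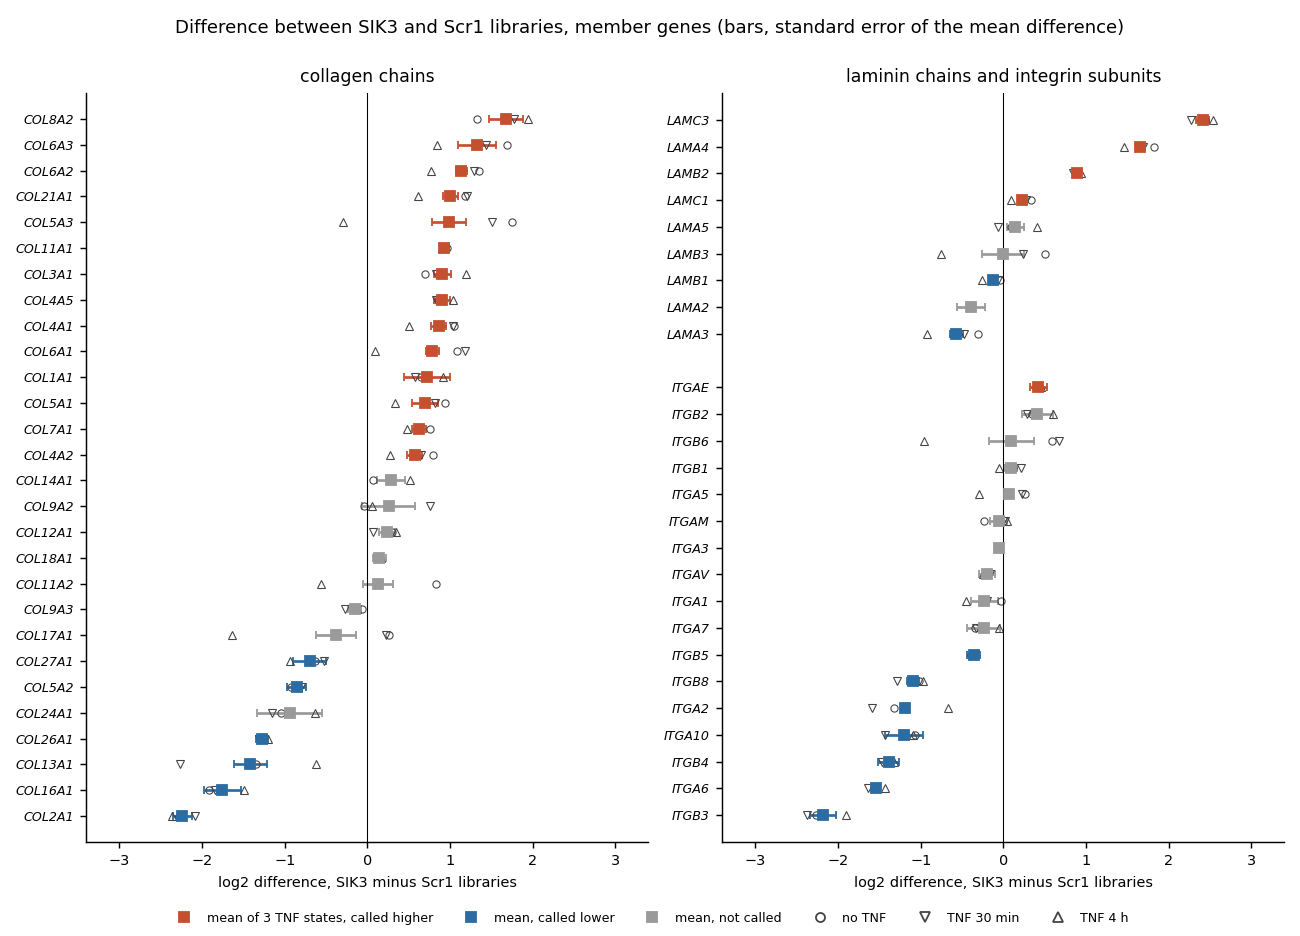
Log2 difference between SIK3 and Scr1 libraries for all members but 1, collagen chains at left, laminin chains and integrin subunits at right; squares give the mean of the 3 TNF states with its standard error, open symbols each TNF state. LAMC3 (2.41) and COL2A1 (-2.24) mark the ends, and 7 of the 8 integrins called lie below 0.

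Fibrillar collagens, which form the banded fibres of tissue, split: of 10 tested, 5 rose, 3 fell and 2 were not called for the mean of the TNF states. By TNF state, 4 were higher and 2 lower with no TNF (median log2 difference 0.68) and at 30 min (0.36), but 2 higher and 3 lower at 4 h, where the median was -0.43. All 28 collagens together had 8 higher and 6 lower at 4 h. COL5A2 (ENSG00000204262, chr2:189031896-189225312, minus strand, GRCh38), the α2 chain of the type V collagen that controls fibril diameter, ran from 1014 through a median of 1167 to 1320 CPM in the 6 Scr1 libraries and from 551 through 648 to 754 CPM in the 6 SIK3 libraries. It fell 1.81-fold (log2 difference -0.86, SE 0.11, adjusted p = 0.000125), with no overlap between the sets. COL11A1 (ENSG00000060718, chr1:102876467-103108872, minus strand), a type XI chain known to join type V chains in mixed fibrils, ran from 409 through 436 to 457 CPM and from 792 through 819 to 863 CPM. It rose 1.91-fold (log2 difference 0.93, SE 0.05, adjusted p = 2.33e-07), again without overlap.

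Per kilobase, COL5A2 went from the leading collagen by a wide margin to a level close to that of COL11A1. The ratio of COL5A2 to COL11A1, each per kilobase, was 2.98 to 3.59 in the Scr1 and 0.827 to 1.07 in the SIK3 libraries, which follows from the levels just given and was not tested apart. COL5A2 made up 51.1 to 56.8% of the summed collagen level per kilobase in the former and 29.2 to 34.5% in the latter, and COL11A1 15.1 to 17.4% and 31.6 to 35.3%. Summed collagen itself was 290 ± 27.6 CPM per kb in the Scr1 and 274 ± 16.5 in the SIK3 libraries (SD, n = 6 each), with overlapping ranges, and the SIK3 library was the lower in 5 of 6 pairs of the same TNF state and replicate number. These sums and shares are descriptions, with no test.

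COL2A1, the collagen of cartilage, was a low transcript that fell 4.73-fold (log2 difference -2.24, SE 0.12, adjusted p = 1.92e-07), from 4.65 to 7.66 CPM down to 0.929 to 1.72 CPM. COL3A1, the type III chain of elastic tissues, rose 1.88-fold (adjusted p = 4.94e-05), from 8.54 to 11.6 up to 15.8 to 23.8 CPM. COL3A1 and COL5A2 lie 19149 bases apart on chromosome 2, on opposite strands, and moved in opposite directions. COL5A1, the partner of COL5A2 in type V, rose 1.62-fold for the mean of the TNF states (3.29 to 7.04 and 7.17 to 10.2 CPM, adjusted p = 0.00305). It was not called at TNF 4 h (7.04 and 6.80 CPM in the Scr1, 7.17 and 10.2 CPM in the SIK3 libraries). Its calls with no TNF and at 30 min were each lost under some omissions of a library. COL1A1 was called at 1.65-fold higher (adjusted p = 0.0473), a call lost under 7 of the 12 omissions of a library (adjusted p 0.0616 to 0.137 there), with replicate 2 above replicate 1 in each condition.

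In the list of basement membrane and network collagens, all 4 tested, COL4A1, COL4A2, COL4A5 and COL8A2, rose for the mean of the TNF states. Their median log2 difference was 0.88. At TNF 4 h alone 3 of the 4 were called higher. The exception was COL4A2, with means of 12.4 CPM in the Scr1 and 14.95 CPM in the SIK3 libraries there. COL4A1 and COL4A2 encode the chains of the common type IV network and start from a shared region on chromosome 13, where the 2 gene models overlap by 1422 bases on opposite strands. COL4A1 rose 1.82-fold (log2 difference 0.86, SE 0.09, adjusted p = 2.67e-05) and COL4A2 1.49-fold (0.57, SE 0.09, adjusted p = 0.000406). With no TNF, COL4A1 was at 6.77 and 6.43 CPM in the Scr1 and 15.3 and 12.04 CPM in the SIK3 libraries. COL4A5, a chain of specialised type IV networks, ran from 7.99 to 11.96 and from 15.6 to 20.6 CPM. COL8A2, a type VIII network chain, ran from 0.439 to 0.707 and from 1.38 to 2.39 CPM, a 3.20-fold rise (adjusted p = 7.10e-05).

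Among the 14 other collagens 5 rose, 3 fell and 6 were not called. The type VI chains, which assemble into beaded filaments around cells, rose for the mean of the 3 TNF states. COL6A2 rose from 9.90 to 17.0 up to 25.6 to 29.3 CPM (2.20-fold, adjusted p = 5.35e-07), COL6A1 1.72-fold (1.62e-05) and COL6A3 2.51-fold (0.000787). COL6A3 stayed low, at 0.353 to 0.910 and 0.929 to 1.83 CPM. Without the SIK3 libraries, where it was higher, COL6A3 would fall short of the minimum of reads for a member. At TNF 4 h, COL6A1 did not pass the test (log2 difference 0.09, SE 0.13), and its 2 Scr1 libraries, at 24.8 and 21.7 CPM, reached the level of the SIK3 libraries. COL6A3 was not called at TNF 4 h either (0.607 and 0.553 CPM in the Scr1, 0.929 and 1.16 CPM in the SIK3 libraries). COL7A1, the anchoring fibril chain of epithelial basement membranes, rose 1.54-fold (adjusted p = 0.000161), and COL21A1, a fibril-associated chain, 2.00-fold (1.01e-05). COL16A1, another fibril-associated chain, fell 3.37-fold (2.12 to 4.10 and 0.539 to 1.21 CPM). The transmembrane chain COL13A1 fell 2.67-fold and COL26A1 2.42-fold (19.1 to 22.1 and 7.96 to 8.95 CPM). Without the Scr1 libraries, where they were higher, COL16A1 and COL13A1 would fall short of the minimum of reads for a member. COL18A1, a basement membrane chain whose end is released as endostatin, was abundant at 412 to 530 and 471 to 554 CPM and was not called (log2 difference 0.14, SE 0.08, adjusted p = 0.149), though it was with the replicate number as a block (0.00125).

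**Figure D2:**
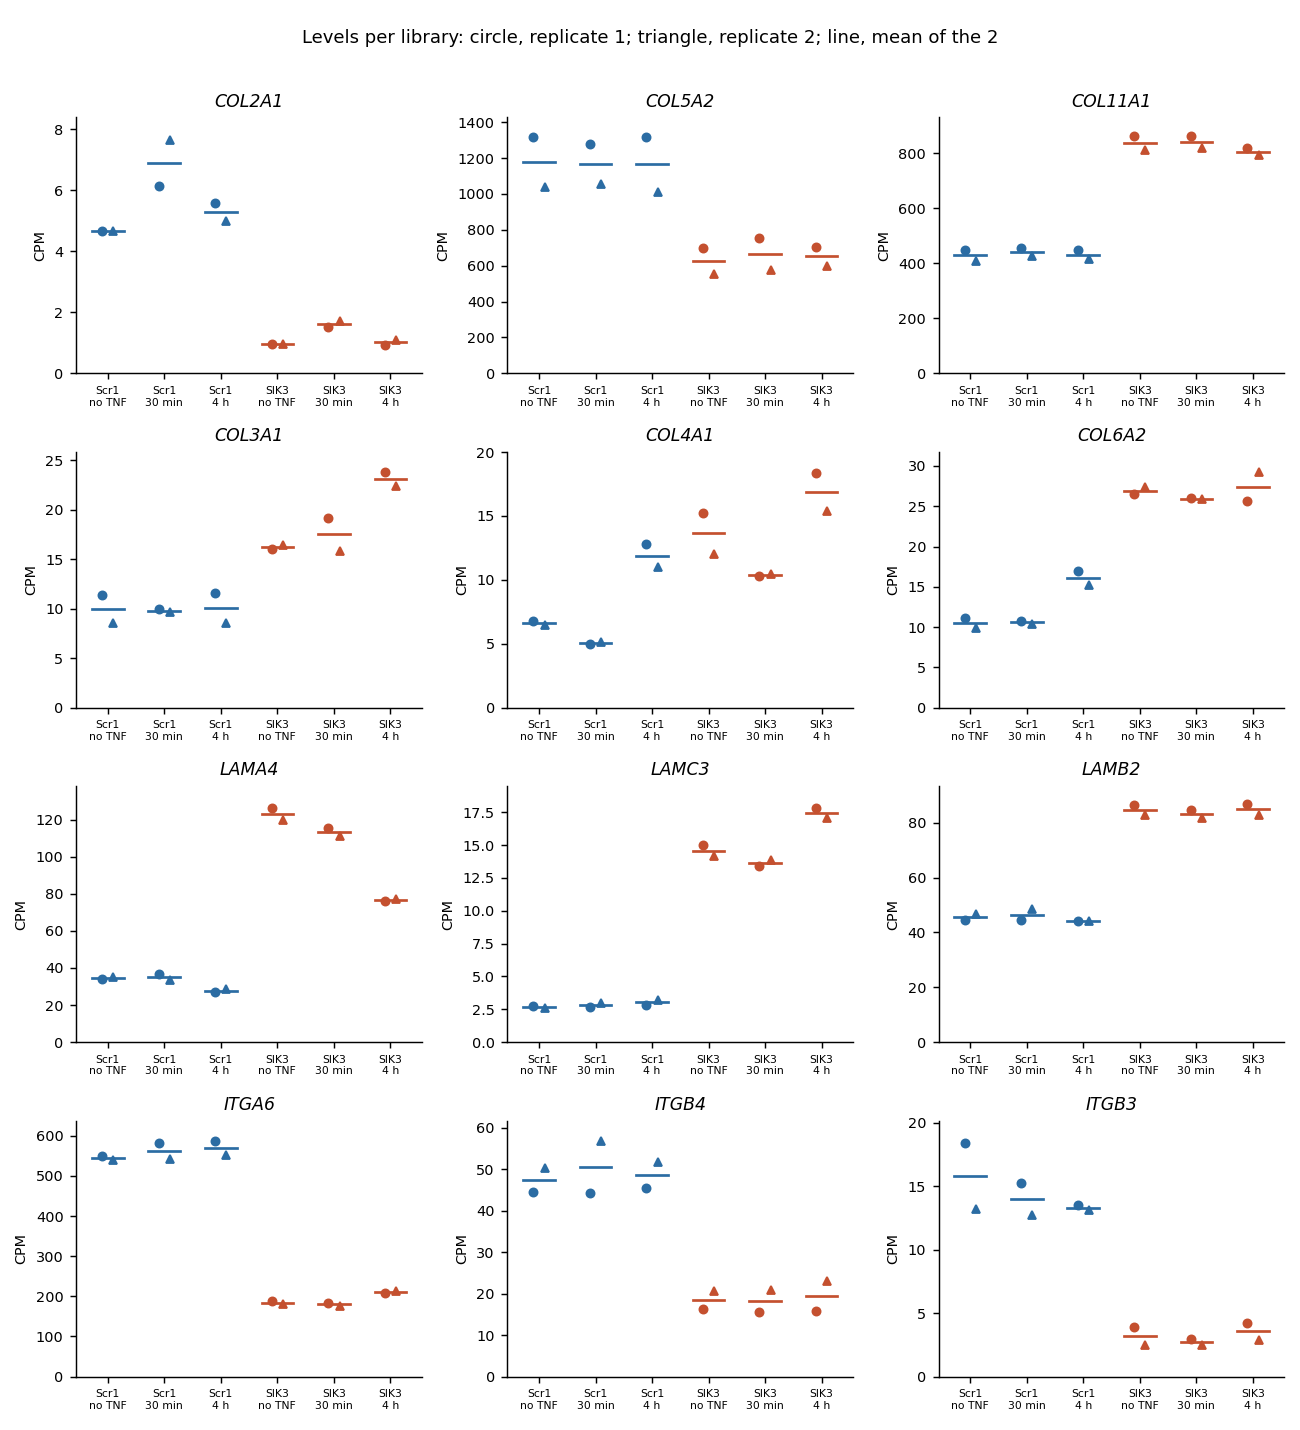
TMM-scaled CPM per library for 12 members, by condition (blue, Scr1; red, SIK3), with circles for replicate 1, triangles for replicate 2 and lines for their mean; each vertical axis starts at 0. In the SIK3 libraries COL5A2 lies at 551 to 754 CPM, below every Scr1 library, and COL11A1 at 792 to 863 CPM, above every Scr1 library.

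Of 10 laminin chains tested, 4 rose, 3 fell and 3 were not called. LAMC3 (ENSG00000050555, chr9:131009082-131094473, plus strand), a γ chain of restricted expression, ran from 2.62 through a median of 2.77 to 3.24 CPM in the Scr1 and from 13.4 through 14.6 to 17.8 CPM in the SIK3 libraries. Its 5.33-fold rise was the largest of any member (log2 difference 2.41, SE 0.08, adjusted p = 1.53e-08). LAMA4 (ENSG00000112769, chr6:112108760-112254939, minus strand), the α chain of vessel and mesenchymal laminins, ran from 26.9 through 34.0 to 36.6 CPM and from 76.1 through 113 to 127 CPM. It rose 3.16-fold (log2 difference 1.66, SE 0.05, adjusted p = 1.05e-08). LAMB2, the β chain found in mature basement membranes, rose 1.85-fold, from 44.0 to 48.5 up to 81.7 to 86.8 CPM (adjusted p = 3.04e-07). For these 3 chains no SIK3 library overlapped a Scr1 library.

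LAMA3 and LAMB3 are chains of epithelial anchoring laminins. LAMA3 fell 1.48-fold (18.2 to 24.2 and 10.8 to 18.0 CPM, adjusted p = 9.56e-05), while LAMB3 had a log2 difference of -0.01 (SE 0.25). That mean for LAMB3 joined opposite directions. Its mean level was 1.89 CPM in the Scr1 and 2.72 CPM in the SIK3 libraries with no TNF, and 7.45 and 4.42 CPM at TNF 4 h. LAMB3 was not called in any single TNF state. LAMC1, the common γ chain, rose 1.17-fold (adjusted p = 0.00257). LAMB1 was called at -0.12 (adjusted p = 0.0346) but lost the call under 10 of 12 omissions (adjusted p up to 0.132). LAMA5, the most abundant α chain, was at 119 to 162 and 122 to 186 CPM and was not called (adjusted p = 0.243), though it was with the block (0.000448).

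As shares per kilobase, LAMA4 went from 17.4 to 23.1% of the α chains in the Scr1 libraries to 32.2 to 51.1% in the SIK3 libraries, and LAMA5 from 63.6 to 69.9% to 42.5 to 62.8%. LAMB2 went from 11.3 to 11.9% of the β chains to 18.9 to 23.9%, and LAMC3 from 0.358 to 0.410% of the γ chains to 1.56 to 2.26%. The summed level of the α chains was 14.1 ± 1.35 CPM per kb in the Scr1 and 20.9 ± 1.22 in the SIK3 libraries (SD, n = 6 each), without overlap. That of the γ chains was 97.2 ± 4.70 and 109 ± 7.10 CPM per kb, higher with the SIK3 siRNA in 5 of 6 pairs, and that of the β chains 56.7 ± 1.87 and 58.5 ± 4.69 CPM per kb, higher in 4 of 6. The gain in LAMA4 share was smallest at TNF 4 h, where it was 34.3 and 32.2%, in the 2 libraries with more reads outside annotated features.

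**Figure D3:**
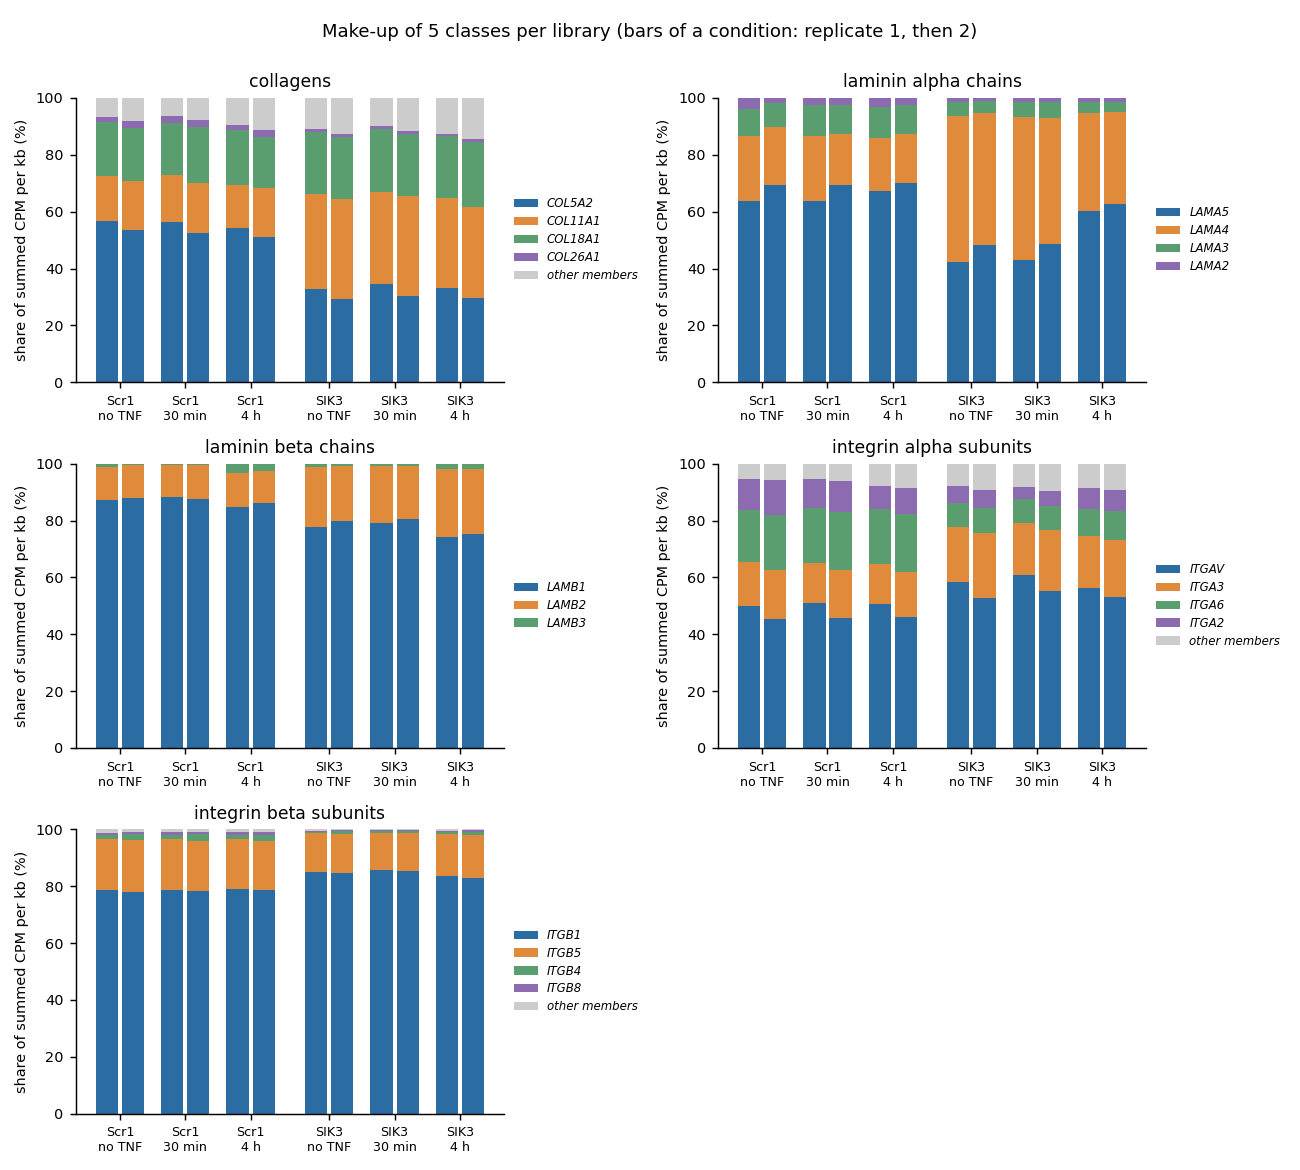
Share of the summed CPM per kilobase of 5 classes (collagens, laminin α and β chains, integrin α and β subunits) taken by their leading members in every library, as stacked bars in percent; within a condition the left bar is replicate 1 and the right bar replicate 2. COL11A1 reaches 31.6 to 35.3% of collagens and LAMA4 32.2 to 51.1% of laminin α chains in the SIK3 libraries, while ITGA6 drops to 8.19 to 10.2% of integrin α subunits.

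Several subunits of laminin and collagen receptors fell for the mean of the 3 TNF states (ITGA6, ITGB4, ITGA2, ITGA10). The abundant subunits ITGB1, ITGAV, ITGA3 and ITGA5 did not pass that test of the mean. ITGA6 (ENSG00000091409, chr2:172427354-172506282, plus strand), which pairs with ITGB4 in hemidesmosomes or with ITGB1 as a laminin receptor, ran from 539 through a median of 551 to 587 CPM in the Scr1 and from 176 through 186 to 212 CPM in the SIK3 libraries. It fell 2.92-fold (log2 difference -1.55, SE 0.05, adjusted p = 8.82e-09). ITGB4 (ENSG00000132470, chr17:75721328-75757818, plus strand), its hemidesmosome partner, ran from 44.2 through 47.9 to 56.7 CPM and from 15.6 through 18.4 to 22.99 CPM. It fell 2.61-fold (log2 difference -1.39, SE 0.13, adjusted p = 9.45e-06). Both subunits of the α6β4 receptor were therefore lower, in all 3 TNF states and without overlap.

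Among collagen receptors, ITGA2 fell 2.28-fold (299 to 421 and 114 to 191 CPM, adjusted p = 4.18e-08) and ITGA10 2.30-fold (3.16 to 5.23 and 1.16 to 2.72 CPM, adjusted p = 0.00117). ITGA1, which lies 30115 bases from ITGA2 on chromosome 5, was low and not called (2.96 to 5.93 and 2.34 to 4.65 CPM, log2 difference -0.23, SE 0.16). Of the partners of ITGAV, ITGB3, part of the vitronectin receptor, fell 4.54-fold (12.8 to 18.4 and 2.45 to 4.25 CPM, adjusted p = 1.43e-06). ITGB8, which with ITGAV activates latent TGF-β, fell 2.14-fold (42.1 to 52.1 and 17.4 to 28.2 CPM, adjusted p = 8.19e-07), and ITGB5 fell 1.28-fold (adjusted p = 0.00236). ITGAE, a subunit of the E-cadherin receptor of lymphocytes, was the 1 integrin that rose (1.34-fold, 6.86 to 8.56 and 8.55 to 11.8 CPM, adjusted p = 0.00554).

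ITGB1 was at 1636 to 1931 and 1612 to 2182 CPM (log2 difference 0.09, SE 0.07, adjusted p = 0.329), ITGAV at 1536 to 1925 and 1365 to 1688 CPM (-0.20, SE 0.10, 0.0957), the laminin receptor subunit ITGA3 at 626 to 715 and 587 to 710 CPM (-0.06, SE 0.05, 0.305) and the fibronectin receptor subunit ITGA5 at 158 to 248 and 186 to 210 CPM (0.06, SE 0.06, 0.359). With the replicate block, ITGB1 (0.000613), ITGAV (2.89e-07) and ITGA3 (0.0468) passed at nearly the same small differences. The mean for ITGA5 joined opposite directions. With no TNF its mean level was 163 CPM in the Scr1 and 195 CPM in the SIK3 libraries, and at 4 h it was 246 and 200 CPM. At TNF 4 h alone ITGA5 was called lower, a call lost under each omission of 1 library (log2 difference -0.23 to -0.37). Summed integrin α subunits went from 410 to 466 CPM per kb in the Scr1 down to 310 to 352 in the SIK3 libraries, and ITGA6 from 18.1 to 20.5% of them to 8.19 to 10.2%. ITGB1 made up 78.0 to 79.0% and 83.0 to 85.6% of the β subunits, whose sum was 377 ± 30.4 and 373 ± 34.8 CPM per kb (SD, n = 6 each), higher with the SIK3 siRNA in 3 of 6 pairs.

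Some members share exon bases with another annotated gene, 25 of 55 in all, among them ITGA6, ITGB3, ITGB8, ITGA10, LAMA4, LAMA5, LAMB1, COL3A1, COL4A2, COL5A3, COL7A1, COL16A1, COL17A1 and COL18A1. The strand setting of the counting is not given in the sources used here, so reads there could be split or left out. COL2A1, COL5A2, COL11A1, COL4A1, COL6A1, COL6A2, LAMC3, LAMB2, ITGA2 and ITGB4 share none.

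Genes that process collagen or act with integrins were counted from lists chosen with earlier results of these data known. Of 26 collagen-processing genes tested, 19 rose and 5 fell, with a median log2 difference of 0.50 (0.02 over all genes), where 30.2% of all genes rose and 29.0% fell. At TNF 4 h alone 11 of the 26 were higher and 4 lower, beside 16 and 4 with no TNF. PLOD3, a lysyl hydroxylase, rose 2.02-fold, PPIB, a prolyl isomerase, 1.65-fold and P4HB, a prolyl hydroxylase subunit, 1.62-fold, while the lysyl oxidase LOXL4 fell 2.98-fold, the procollagen protease ADAMTS3 3.31-fold and the prolyl hydroxylase subunit P4HA1 1.39-fold. Of 19 matrix glycoproteins and proteoglycans, 7 rose and 8 fell beside the same shares of all genes: THBS1 6.31-fold, NPNT 5.79-fold and TNC 2.40-fold higher, and HSPG2 2.11-fold, SPARC 1.94-fold and FBLN1 1.54-fold lower. NPNT encodes nephronectin, an integrin ligand, and HSPG2 encodes perlecan of basement membranes. Of 28 genes of integrin adhesion machinery and other matrix receptors, 11 rose and 11 fell beside those shares, with TLN1, the talin that activates integrins, 3.67-fold higher and LIMS1, which encodes the PINCH1 adaptor, 4.20-fold lower. All of these passed the test of the mean of the 3 TNF states (adjusted p at most 0.000703).

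Across the 12 libraries, the genes whose log2 CPM followed ITGB4 most closely were CDK2AP1, INCENP, SCMH1, BAHD1 and SEPT9 (Pearson r 0.994 to 0.997), and those nearest to LAMC3 were FER1L4, RBM15B, URB1, ARHGAP45 and TOP1MT (0.993 to 0.996). None is a member. The points share the siRNA, the TNF times and the replicate numbers, so these values are a description only.

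TNF-α for 30 min moved no member past the threshold. In the Scr1 libraries 0 of 55 members were called by edgeR (0.294% of all genes), with 6 at an unadjusted p under 0.05. DESeq2 called 0 there, beside 84 of 16695 genes. In the SIK3 libraries 0 were called by edgeR (0.150% of all genes), with 7 at an unadjusted p under 0.05. DESeq2 called 1 there, ITGA2 (log2 difference -0.47, adjusted p = 0.00196), beside 58 of 16695 genes. With the replicate block, ITGA2 was called lower in the Scr1 libraries (-0.21, adjusted p = 0.0424, beside 0.964% of all genes), and 4 members were called lower in the SIK3 libraries, beside 1.70%. Among these were ITGA2 (-0.47, adjusted p = 1.75e-05), COL12A1 (-0.46, 0.000647) and COL4A2 (-0.46, 0.0468).

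At 4 h in the Scr1 libraries 13 of 55 members were called, which is 23.6% beside 8.99% of all genes: 12 rose, beside 5.53% of all genes, and 1 fell, beside 3.46%. Among the risers were epithelial basement membrane and hemidesmosome chains (COL7A1, COL17A1, LAMB3), type IV and VI chains (COL4A1, COL4A2, COL6A1, COL6A2), the fibrillar chains COL5A3, COL11A2 and COL27A1, and ITGA5. ITGA2 fell. With the replicate block 20 were called, 17 higher, beside 11.3% of all genes, and 3 lower, beside 12.2%.

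COL5A3 (ENSG00000080573, chr19:9959561-10010471, minus strand), a type V chain of limited distribution, was at 0.582 and 0.848 CPM with no TNF and at 5.22 and 8.30 CPM at 4 h. It rose 9.49-fold (log2 difference 3.25, SE 0.36, adjusted p = 0.000315). COL17A1, the transmembrane collagen of hemidesmosomes, was at 0.370 and 0.212 CPM and then at 2.67 and 1.98 CPM, a 7.64-fold rise (2.93, SE 0.36, adjusted p = 0.000675) from a level near the 3-read limit. Its 143 reads over all libraries include those of the Scr1 4 h libraries, where it was highest. Without them it would fall short of the minimum of reads for a member. Its selection and its rise therefore rest on the same libraries. COL7A1 went from 13.1 and 13.5 to 28.7 and 27.0 CPM (2.09-fold, adjusted p = 0.00173). In each of these 3 genes both libraries at 4 h lay above both without TNF.

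COL6A1 went from 12.9 and 11.9 to 24.8 and 21.7 CPM (1.87-fold, adjusted p = 0.00238) and ITGA5 from 168 and 158 to 248 and 243 CPM (1.51-fold, adjusted p = 0.00375). The calls of COL5A3, COL17A1, COL7A1, COL6A1 and ITGA5 held when any 1 of the 4 libraries was left out. The set of members stayed fixed under omission, so this did not test the selection of COL17A1 by its reads. Of the 13 calls, 7 were lost under at least 1 omission. These were LAMB3 (2.86 and 0.919 to 8.26 and 6.64 CPM, adjusted p = 0.0121; up to 0.0757 on omission), COL11A2 (0.00616; 0.0547), COL27A1 (4.97 and 9.47 to 17.6 and 20.6 CPM, 0.0254; 0.139), COL4A1 (0.00925; 0.0753), COL4A2 (0.0295; 0.189), COL6A2 (0.0113; 0.0877) and ITGA2 (410 and 421 to 299 and 300 CPM, 0.00554; 0.0674). Leaving out Scr1 4 h replicate 1 ended 6 of these 7 calls, the exception being ITGA2.

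**Figure D4:**
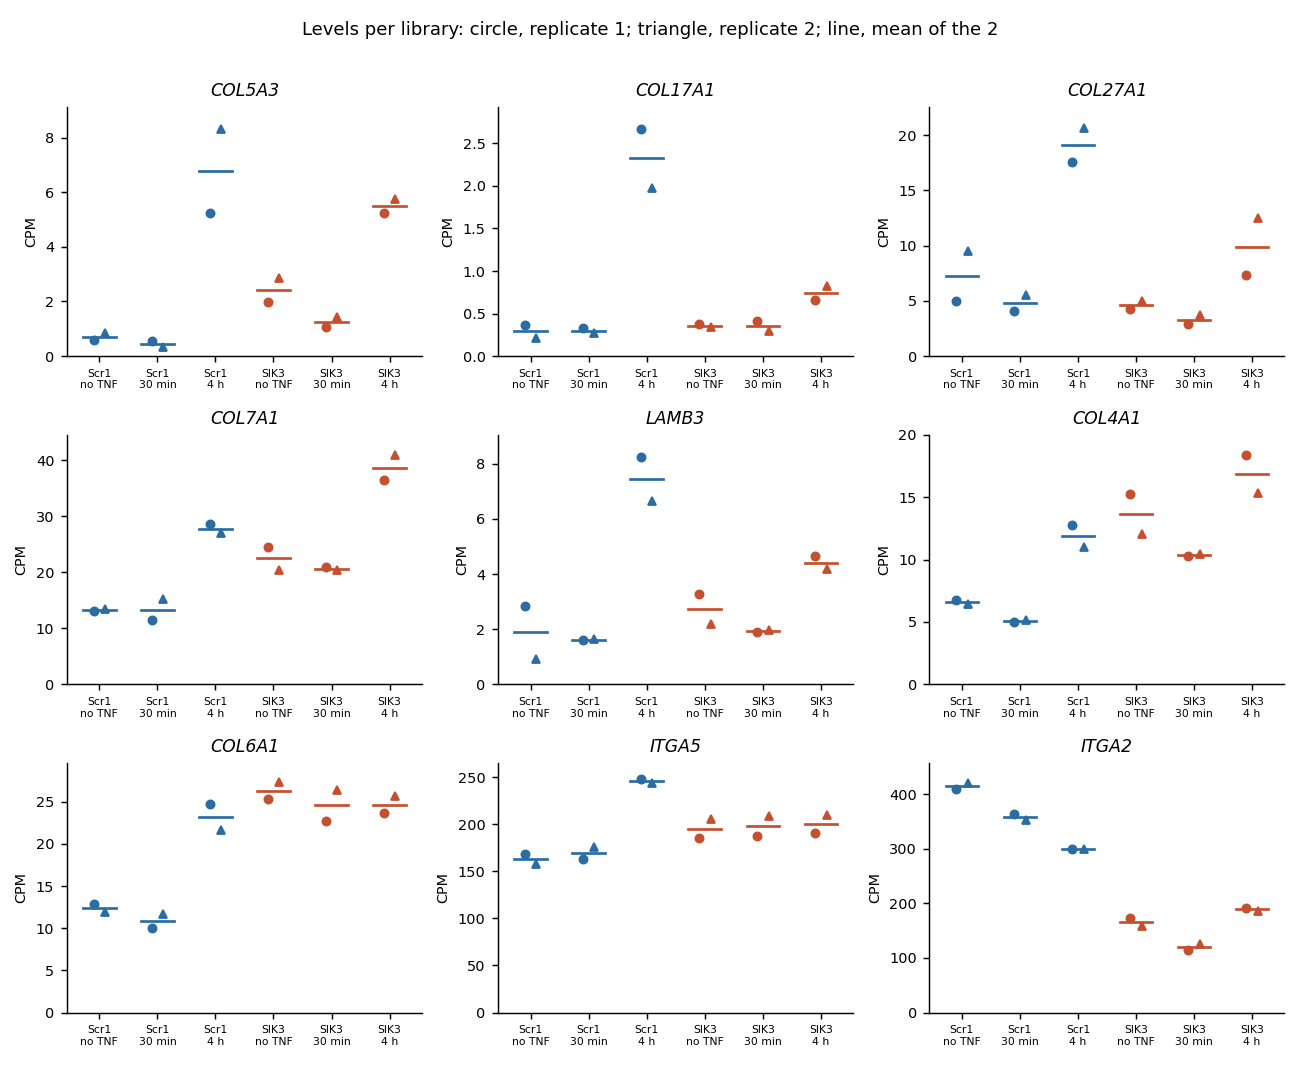
TMM-scaled CPM per library for 9 members called at TNF 4 h in the Scr1 libraries, by condition (blue, Scr1; red, SIK3), with circles for replicate 1, triangles for replicate 2 and lines for their mean; each vertical axis starts at 0. COL5A3 rises from below 1 to 5.22 and 8.30 CPM in the Scr1 libraries, and COL6A1 is level over the SIK3 libraries at 22.8 to 27.3 CPM.

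The promoters of 3 members called both for TNF at 4 h in the Scr1 libraries and for the knockdown mean are shown. They are the 250 bases before the RefSeq start (GRCh38.p14), 5′ to 3′ on the gene's strand, to let the reader see where a loose NF-κB form lies. By that mean COL5A3 and COL7A1 were higher in the SIK3 libraries, and COL27A1 was lower. Mean levels of COL5A3 in the Scr1 and SIK3 libraries were 0.715 and 2.41 CPM with no TNF and 6.76 and 5.49 CPM at 4 h. Those of COL27A1 were 7.22 and 4.64 CPM, and 19.1 and 9.91 CPM. The knockdown calls of COL5A3 at 30 min and COL27A1 at 4 h were lost under some omissions. Capitals mark matches on either strand to GGG and CC with any 5 bases between them, overlapping ones merged. The starts lie 33, 23 and 62 bases upstream of the GENCODE 29 gene starts of COL5A3, COL27A1 and COL7A1. COL5A3 lies at chr19:10010505-10010754 (minus strand), COL27A1 at chr9:114155287-114155536 (plus strand) and COL7A1 at chr3:48595330-48595579 (minus strand).
COL5A3: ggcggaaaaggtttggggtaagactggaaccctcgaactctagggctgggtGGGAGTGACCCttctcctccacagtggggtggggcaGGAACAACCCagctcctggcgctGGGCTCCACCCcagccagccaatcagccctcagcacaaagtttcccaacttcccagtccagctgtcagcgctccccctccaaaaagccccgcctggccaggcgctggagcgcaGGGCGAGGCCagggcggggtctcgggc
COL27A1: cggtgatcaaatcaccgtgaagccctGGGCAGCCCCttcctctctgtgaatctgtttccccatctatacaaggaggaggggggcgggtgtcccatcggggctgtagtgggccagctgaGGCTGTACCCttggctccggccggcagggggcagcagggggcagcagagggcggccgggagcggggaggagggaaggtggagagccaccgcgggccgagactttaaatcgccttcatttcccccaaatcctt
COL7A1: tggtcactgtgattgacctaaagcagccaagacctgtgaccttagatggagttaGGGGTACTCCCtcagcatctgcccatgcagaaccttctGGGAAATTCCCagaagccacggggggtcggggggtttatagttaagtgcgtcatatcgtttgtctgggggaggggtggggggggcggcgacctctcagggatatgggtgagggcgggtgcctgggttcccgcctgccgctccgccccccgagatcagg

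COL5A3 holds 6 matches of this form when overlapping ones are counted apart, COL27A1 holds 2 and COL7A1 holds 4. The form is common: it was found in 53.7% of 27305 RefSeq promoters of this length and in 27 of the 41 members with an entry (65.9%). Among the 13 members called at 4 h, 11 had an entry and 10 of these held it. The AP-1 motif TGANTCA was in 6.60% of all promoters and in 1 member, LAMA3, and the cyclic AMP response element TGACGTCA was in 1.77% and in no member promoter. These matches describe letters in a window and are not sites.

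In the SIK3 libraries 3 of 55 members were called at TNF 4 h, which is 5.45% beside 4.42% of all genes: 2 rose, beside 3.65%, and 1 fell, beside 0.767%. LAMA4 fell from 127 and 120 to 76.1 and 77.2 CPM (log2 difference -0.69, SE 0.09, adjusted p = 0.00221), a call that held under each omission of 1 library. COL7A1 rose from 24.5 and 20.4 to 36.4 and 41.0 CPM (0.78, SE 0.15, adjusted p = 0.0164), and its call was lost on omission (adjusted p up to 0.137). With the block 18 were called, 11 higher, beside 12.5% of all genes, and 7 lower, beside 9.36%.

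**Figure D5:**
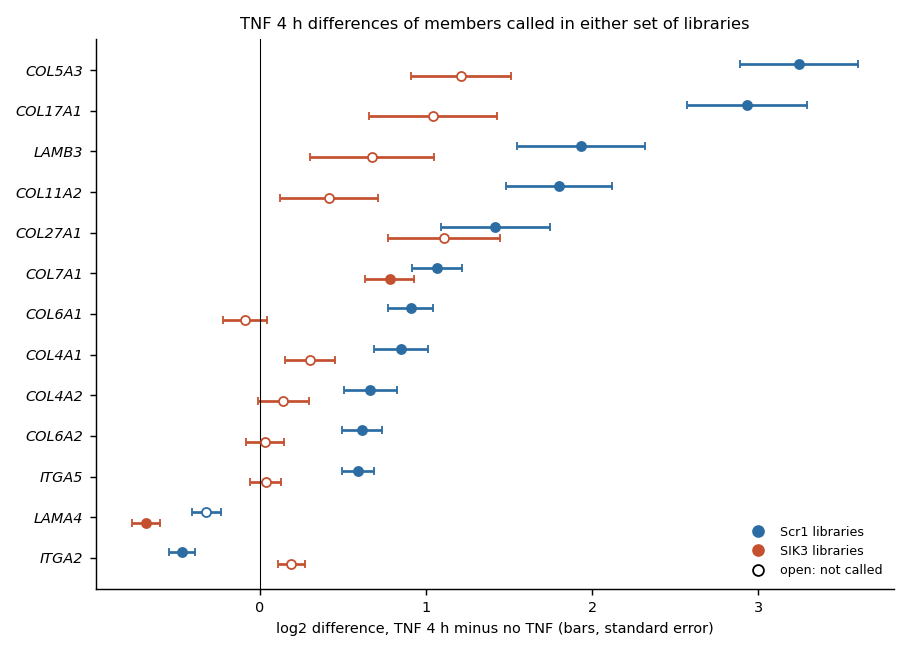
Log2 difference of TNF 4 h minus no TNF, with its standard error, in Scr1 (blue) and SIK3 (red) libraries for 13 of the 14 members called in either; filled points passed an adjusted p of 0.05. COL5A3 lies at 3.25 and 1.21, and ITGA2 at -0.47 and 0.19.

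Whether the response to TNF at 4 h differed between the siRNAs was tested as an interaction, which called 2 of 55 members (3.64%, beside 1.56% of all genes), 1 positive (0.719%) and 1 negative (0.845%). ITGA2 (chr5:52989326-53094779, plus strand) fell by 0.47 on the log2 scale in the Scr1 libraries and had a difference of 0.19 (SE 0.08) in the SIK3 libraries, an interaction of 0.66 (SE 0.12, adjusted p = 0.0272). COL6A1 (chr21:45981737-46005050, plus strand) rose in the Scr1 libraries and lay at 25.3 and 27.3 CPM without TNF and 23.7 and 25.6 CPM at 4 h in the SIK3 libraries, an interaction of -0.999 (SE 0.19, adjusted p = 0.0351). Both calls were lost under each of the 8 omissions of 1 library (adjusted p 0.0629 to 0.155).

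COL5A3 reached 5.24 and 5.73 CPM at 4 h in the SIK3 libraries from 1.97 and 2.86 CPM, and its interaction was -2.04 (SE 0.47, adjusted p = 0.0811; called by DESeq2, adjusted p = 0.0276). COL17A1 reached 0.664 and 0.827 CPM there, and its interaction was -1.90 (SE 0.55, adjusted p = 0.173). With the replicate block 17 members had an interaction, 15 negative, beside 5.52% of all genes, and 2 positive, beside 6.44%. Among the 15 were COL5A3 (adjusted p = 0.00104), COL6A1, COL6A2, ITGA5, LAMA3 and LAMB3, and the 2 were ITGA2 and LAMA5. The SIK3 4 h libraries, which enter each of these values, are those with more reads outside annotated features, and the part of that difference was not tested. Replicate 2 of SIK3 4 h also had fewer multimapping reads (10.15%) than replicate 2 of Scr1 4 h (41.5%), and the part of this was not tested either.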

How the data were processed

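Total RNA of PANC-1 cells was extracted with RNeasy and DNase I and made into libraries with the ScriptSeq kit, per the labels' protocols. The authors deposited counts of reads per gene, as whole numbers in 1 column per library, and the submitters' processing notes name STAR 2.05b, edgeR and GRCh38. The counting's strand setting and annotation release are not given in the sources used here. Names and positions came from GENCODE 29, which lacked 3742 of 60669 identifiers. Unmapped, multimapping, no-feature and ambiguous reads stayed out of library sizes.

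Conditions followed the words in the deposited names, with titles as an alternative. In R 4.3.3, edgeR 4.0.16 filtered genes (filterByExpr, minimum count 10; 16695 kept), scaled libraries by TMM and fitted all 12 libraries in 6 conditions, which leaves 6 residual degrees of freedom, without a block. P-values were adjusted by Benjamini-Hochberg over all genes, with a threshold of 0.05. Levels are TMM-scaled CPM, divided by exon length where genes are compared. Sums and shares over members were computed in Python 3.11.15 and not tested. The fit was tested on simulated data. Library totals of 13535825 to 22699756 limit precision for low genes.

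Members and gene lists were chosen with earlier results of these data known. The minimum of reads for a member was a sum over all libraries. Low members such as COL8A2, COL6A3, COL13A1, COL16A1 and COL17A1 reached it only with the libraries where they were higher. The counts of calls include them. 1 member is included in counts and sums but not reported here by name. Full values were given for up to 10 called members per comparison with the largest fold, the most abundant member of each role and partner chains, and for up to 3 genes per direction of each other list by p. Deviations of replicate 1 from the condition mean correlated between all 15 pairs of conditions over all genes tested (r 0.35 to 0.53, median 0.421). Over the 55 members r was -0.042 to 0.567 (median 0.278). The replicate numbers were taken as pairing the libraries only in the blocked fit and in the counts of pairs. The main tests left this pairing out. Blocked counts are given for each comparison, and blocked values of single members only for some whose call changed. Alternatives were that block, DESeq2 1.42.0 size factors and Wald test, library totals, no filter, a filter that asks for 4 or more libraries at 1 CPM or above, an adjusted p under 0.01, conditions by title and each library left out. Leaving out both SIK3 4 h libraries and a test of the replicate number were chosen after seeing the data. Promoters came from the RefSeq table for GRCh38.p14.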

Additional observations from a re-analysis of the deposited data

Results flagged for a closer look

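For 2 members the response to TNF at 4 h differed between the Scr1 and the SIK3 libraries by a test of the difference itself. The interaction was 0.657 on the log2 scale for ITGA2 and -0.999 for COL6A1 (adjusted p = 0.0272 and 0.0351, edgeR), and both calls were lost when any 1 of the 8 libraries was left out. DESeq2 also called both (adjusted p = 0.00158 and 0.00107). With conditions by title the value for COL6A1 was 0.20.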

How the results depend on the processing

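By title, with the share of all genes called in parentheses, the number of members called was 0 for the knockdown with no TNF (0.294%), 12 at TNF 4 h (7.08%) and 13 for the mean of the TNF states (16.7%). It was 13 for TNF 30 min (8.99%) and 31 for TNF 4 h (37.9%) with control siRNA, 30 (40.1%) and 36 (41.8%) with SIK3 siRNA, and 10 for the interaction (3.45%). By title these differences changed sign: COL2A1 to 0.57, COL5A3 to -0.68, ITGA6 to 0.043 and ITGB4 to 0.088 for the knockdown with no TNF; COL5A3 to -1.50 at TNF 30 min; ITGB3 to 0.39, COL17A1 to 1.08, COL16A1 to 0.53, LAMA4 to -0.56, ITGA6 to 0.23, ITGB4 to 0.089 and COL26A1 to 0.005 at TNF 4 h; COL13A1 to 0.10 for the mean. For TNF 4 h they were LAMB3 (-0.02) and COL27A1 (-1.11) with control siRNA, LAMA4 (1.13) with SIK3 siRNA, and COL6A1 (0.20) for the interaction. By title each comparison sets other pairs of libraries against each other. The knockdown with no TNF by title, for example, is Scr1 30 min minus Scr1 no TNF by the deposited names. Why titles and names differ was not tested.

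With the replicate block, 38 members were called for the knockdown with no TNF, 38 at TNF 30 min, 36 at TNF 4 h and 45 for the mean. Beside these, 9746, 9771, 9813 and 12111 of all 16695 genes were called. The block called 1 member for TNF 30 min and 20 for TNF 4 h with control siRNA, 4 and 18 with SIK3 siRNA, and 17 for the interaction. It ended no call among the members named per comparison. DESeq2's Wald test called 1, 5 and 4 members for TNF 30 min and 4 h with SIK3 siRNA and the interaction. Beside these it called 58, 781 and 390 of all 16695 genes. No filter gave 6 members for TNF 4 h with SIK3 siRNA, beside 1109 of 35650 genes. An adjusted p under 0.01 gave 1 member there, beside 269 of 16695 genes, and 0 for the interaction, beside 66. Leaving out 1 library gave 24 to 28 members for the knockdown with no TNF, 24 to 26 at 30 min, 20 to 22 at 4 h and 33 to 37 for the mean; 7 to 11 for TNF 4 h with control siRNA, 1 to 2 with SIK3 siRNA and 0 for the interaction. Without both SIK3 4 h libraries the knockdown mean called 33.

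Library totals in place of TMM moved the median of all genes from 0.02 to 0.11 for the knockdown mean, from 0.03 to 0.13 for the knockdown at 4 h and from -0.03 to -0.11 for TNF 4 h with control siRNA, and the members at 4 h then split 13 higher and 12 lower in place of 11 and 15. Depth limits members near 3 reads in a library, such as COL17A1, COL24A1 and COL13A1.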

Other observations

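The 2 replicate numbers also differed in member levels. In a test of the replicate number over all 12 libraries, chosen after seeing the data, 23 of 55 members passed an adjusted p of 0.05, 9 higher and 14 lower in replicate 2, beside 44.7% of all genes. COL1A1 was 0.83 higher on the log2 scale in replicate 2 (adjusted p = 1.69e-07, edgeR), while COL5A2 was at -0.33, ITGAV at -0.26 and ITGB1 at -0.20. COL1A1 lay at 5.10 to 5.38 CPM in the 3 Scr1 libraries of replicate 1 and at 6.64 to 8.77 CPM in those of replicate 2. Multimapping reads also differed by replicate number, at 4.94 to 17.6% in replicate 1 and 10.15 to 45.3% in replicate 2. The part of that difference in these results was not tested.

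Members apart, TNF at 4 h in the Scr1 libraries raised 5 of 28 genes of integrin adhesion machinery and other matrix receptors and lowered 0, raised 3 of 19 matrix glycoproteins and proteoglycans and 1 of 26 collagen-processing genes, beside 5.53% of all genes. In the SIK3 libraries it raised 4 of the 28, beside 3.65% of all genes.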
